A study of Homo sapiens with 6 samples.

Results

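The lysosomal cathepsins described here are 10 protease genes, CTSA, CTSB, CTSC, CTSD, CTSF, CTSH, CTSK, CTSL, CTSV and CTSZ, of 56794 named genes in the authors' deposited table. They were chosen by name, with the group means of this same comparison in view, and the level of a gene is the sum over its transcripts of the mean length-scaled abundance of a group, with the authors' added 1 taken off. Pairs of values below give the mutant group first and the parental group after it. The values below are therefore a description of these libraries, with no test of the family. RNA was taken from HEK293, an established line of human embryonic kidney origin, which in both groups expressed luciferase and was grown in medium with 10% fetal bovine serum. The parental group had 3 libraries, and the mutant group had 3 libraries from the same kind of cell with the CASP8AP2 gene deleted by CRISPR. The labels do not say whether the mutant line was 1 clone. Nothing in the labels says that the 3 libraries of a group were separate cultures. A deposited p-value thus sets a group difference against only the spread between these samples, which may be technical.

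Cathepsins are proteases that break down protein in lysosomes, the acid compartments in which cells digest what they take up and what they recycle. Most are cysteine proteases, named for the cysteine that attacks the peptide bond, while CTSD is an aspartic protease and CTSA a serine carboxypeptidase. They are made as inactive precursors in the endoplasmic reticulum, tagged with mannose 6-phosphate, carried to the lysosome by receptors for that tag and activated there by removal of the propeptide. Cystatins hold stray cysteine cathepsins in check. The transcription factors TFEB and TFE3 switch on many lysosomal genes through sites that contain CACGTG.

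The codons around the catalytic cysteine of the cysteine members are shown because that residue defines their class and because the window shows how alike or unlike the genes are at it. Each line gives 30 bases of the coding strand from GENCODE release 29, 5′ to 3′, with the codon of the catalytic cysteine in capitals.
CTSL: ggtcagtgtggttctTGTtgggcttttagt
CTSV: aaacagtgtggttctTGTtgggcttttagt
CTSK: ggtcagtgtggttccTGTtgggcttttagc
CTSF: ggcatgtgtggctccTGCtgggccttctca
CTSH: ggtgcctgcggcagtTGCtggactttctcc
CTSC: gcatcctgtggcagcTGCtactcatttgct
CTSZ: caatactgcggctccTGCtgggcccacgcc
In this window CTSL differed from CTSK at 2 positions and from CTSV at 3, while CTSZ differed from CTSL at 16. The other pairs, apart from CTSK and CTSV with 5, differed at 10 to 16. Over aligned coding bases, with gaps left out, CTSL and CTSV were 83.5% identical, while all other pairs lay between 59.0% and 68.9%. CTSL and CTSK, so close in the window, were 62.8% identical. The highest of these other values, 68.9%, was that of CTSF with 1455 coding bases and CTSZ with 912. Pairs of such unlike length leave many bases in gaps, so their identity cannot be ranked against that of pairs of like length. CTSB carried 1 match to the same pattern.

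Only group means were analysed, so no value for a single library can be given, and only the deposited p-value draws on the spread between libraries. Those p-values do not test the printed means. In 9 of 96 cathepsin transcripts with values, among them CTSK-201, CTSB-222 and CTSV-201, p was above the highest value that an equal-variance comparison with 4 degrees of freedom could give for 3 libraries a group with these means. The same held for 9.14% of all transcripts, and the scale that was tested is not stated in the labels, so a p stands beside the means below without measuring their difference. Repeated steps in abundance times length gave depth estimates of 57.5 M, 15.0 M and 13.3 M reads on transcripts for the mutant group, against 15.3 M, 11.6 M and 9.19 M for the parental group, so 1 mutant library was far deeper than the other 5. CASP8AP2 RNA itself had an abundance of 15.7 in the mutant libraries against 15.9, and this level does not check the labels, since where in the gene the deletion lies is not stated in the labels. All 8 genes listed as known in HEK293 cells were measured. Among them NEFL, a neurofilament gene, stood at 434 against 35.7, NEFM, its partner, at 0.0690 against 8.63, and KRT8, an epithelial keratin gene, at 37.3 against 70.6. Markers of macrophages, which carry much cathepsin RNA, summed over 10 genes to 1.56 in the mutant and 1.64 in the parental group, and none reached an abundance of 1. Fibroblast markers summed over 8 genes to 7.26 against 4.35, of which COL1A1, a collagen gene, held 5.82 against 2.17, and COL1A2 was listed at 0 in both groups.

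As a family the cathepsins had no common direction. CTSB was higher in the mutant libraries, CTSZ was close to absent there and CTSA was lower, while the log2 ratios of the other measured members lay between the quartiles of all genes. Of the 10 genes, 9 reached an abundance of 1 in one group or both, 4 of them higher in the mutant group and 5 lower. Their median log2 ratio (1 added to each mean, mutant over parental) was -0.08, against -0.01 over all 14856 genes that reached it, whose quartiles were -0.28 and 0.27. Without CTSB and CTSZ the other 7 lay between -0.56 and 0.24. Summed abundance of the family was 166 in the mutant and 155 in the parental group, and without CTSB it was 101 against 115.

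**Figure D1:**
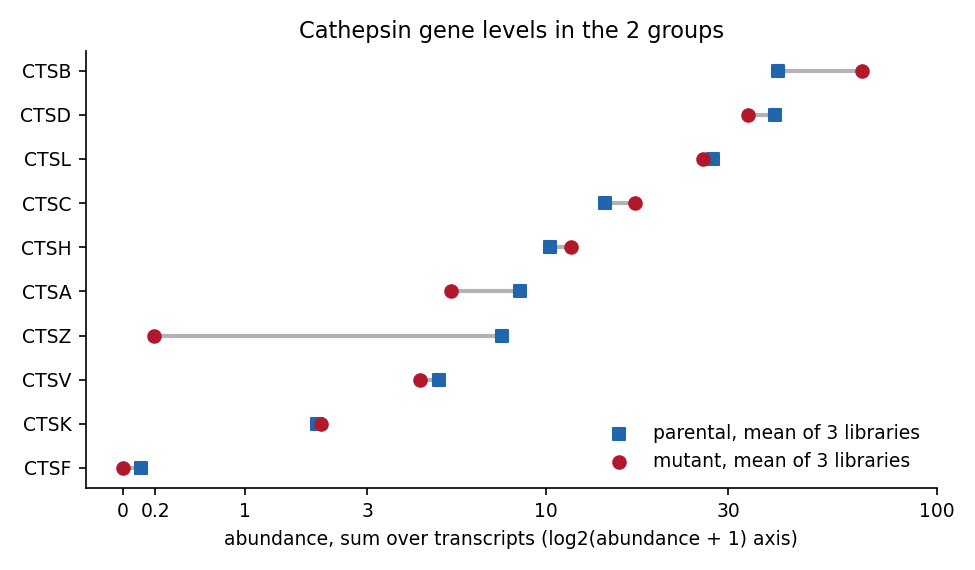
Gene levels of the 10 cathepsins, as abundance summed over transcripts on a log2(abundance + 1) axis. Squares are the means of the 3 parental libraries and circles the means of the 3 mutant ones, with no error bars because only group means were analysed. CTSZ moves from 7.56 to 0.195 and CTSB from 39.97 to 65.2, CTSA lies lower by a shorter line, and the lines of the other measured genes are short.

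Judged by its most abundant transcript, 1 of the 9 measured members was higher with a deposited p under 0.05 (CTSB) and 1 lower (CTSZ). Over all 14856 genes that rule called 5.17% higher and 8.63% lower, and since this contrast was in view when the members were chosen, nothing is read from the members' count. At 1.5-fold or more with 1 added to both means, the gene level of 1 member was higher (CTSB) and of 1 lower (CTSZ), against 8.19% and 7.75% of all genes. Without the added 1, CTSA was 1.57-fold lower and passed this fold too. Of 96 cathepsin transcripts with values, 7 had a deposited p under 0.05 (7.29%), 5 higher and 2 lower, against 5.79% of all transcripts. None had a deposited adjusted p under 0.05, a threshold passed by 0.0221% of transcripts, and the smallest adjusted p in the family was 0.175, for CTSZ-201 in the authors' deposited table.

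CTSZ, also called cathepsin X, is a carboxypeptidase that trims single residues from the end of proteins. Its gene lies on the minus strand of chromosome 20 (58995185 to 59007247, build hg38). The gene stood at 0.195 in the mutant group and 7.56 in the parental group, a 38.9-fold lower level and a log2 ratio of -2.84. In the parental group it was mid-ranked, above 48.3% of measured genes. CTSZ counts as measured only through the parental group, so a low rank in the mutant group follows from that rule and is not read. Only 0.0673% of measured genes had a lower log2 ratio.

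Most of the CTSZ difference lay in CTSZ-201, its single protein-coding transcript with values, which has 6 exons and 1495 bases. It stood at 0.102 against 6.93, and it accounted for 92.7% of the gene's difference. The p-value was 0.000115 in the authors' deposited table. In reads, the mutant mean stands for between 7.53 and 32.6 reads in its 3 libraries together, and the parental mean for between 353 and 588, the bounds depending on which library held them. The mutant value was thus low and not 0.

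Among the minor forms, CTSZ-204, which keeps an intron, stood at 0.00125 against 0.448, where the authors' deposited table gave p = 0.0239. CTSZ-203, which also keeps an intron, stood at 0.0829 against 0.184 (p 0.482 in the authors' deposited table), and the few reads behind it, between 2.65 and 11.4 in the mutant group, leave its difference undecided at this depth. The mutant value of CTSZ-202, 0.00832, equals 1 read in the deepest mutant library. As a result forms that keep an intron made up 47.5% of the little CTSZ RNA in the mutant group, against 8.35% in the parental one. No stretch of 31 bases of CTSZ-201 occurred in transcripts of another gene. In bulk RNA, fewer cells with a transcript and less of it per cell cannot be told apart.

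The genes next to CTSZ stood close to their parental levels. NELFCD, which encodes a subunit of a complex that pauses RNA polymerase II, ends 52 bases from the end of CTSZ on the other strand and stood at 31.4 against 34.3. ATP5F1E, of ATP synthase, lies 18220 bases away on the other side and stood at 31.5 against 30.6, and PRELID3B, of mitochondrial lipid transfer, at 48.5 against 49.4. TUBB1, a platelet tubulin gene between CTSZ and ATP5F1E, stood at 0.0722 and was listed at 0 in the parental group. The low level was thus seen for CTSZ and for none of the 3 measured neighbours within 50000 bases.

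The 250 bases before the CTSZ start are shown because no other member differed as much. The sequence is from RefSeq (GRCh38.p14, chr20:59007255-59007504, minus strand), 5′ to 3′, with GGGCGG on either strand in capitals, the core of sites for SP1 and its relatives.
CTSZ: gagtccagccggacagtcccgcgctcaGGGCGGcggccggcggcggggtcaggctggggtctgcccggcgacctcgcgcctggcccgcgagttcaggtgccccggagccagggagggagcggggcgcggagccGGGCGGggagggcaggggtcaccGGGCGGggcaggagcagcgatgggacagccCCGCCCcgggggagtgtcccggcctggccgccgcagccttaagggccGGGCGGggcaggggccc
It held 5 such matches, 30 CG pairs and 81.2% G and C. Over 35116 promoter windows of this length 42.6% held GGGCGG on either strand, the median number of CG pairs was 11, and 87.6% of windows had fewer CG pairs than CTSZ. Of the 10 members 8, all but CTSB and CTSK, had a window in the table. All 8 had more CG pairs than the median, from 16 for CTSF to 36 for CTSD.

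CTSB is a cysteine protease that cleaves both within and at the end of proteins, and it was the most abundant cathepsin RNA in both groups. The gene lies on the minus strand of chromosome 8 (11842524 to 11869448). Its level was 65.2 in the mutant libraries against 39.97, a ratio of 1.63 and a log2 ratio of 0.69, above 94.7% of measured genes. Its share of all cathepsin RNA was 39.3% in the mutant group and 25.9% in the parental group.

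The higher level was seen in several CTSB transcripts. Of 21 with values 14 were higher and 7 lower. Both counts include forms near 0, such as CTSB-207 at 0.0129 against a listed 0 and CTSB-206 at 0.0513 against 0.0566, so they carry little weight. CTSB-202, the protein-coding transcript with the largest share, stood at 21.4 against 11.1, where the authors' deposited table gave p = 0.0101. CTSB-204, also protein-coding, stood at 13.0 against 6.78 (p 0.0365 in the authors' deposited table). CTSB-203, which keeps an intron, stood at 3.33 against 1.46 and had the smallest p of the gene, 0.00914 in the authors' deposited table. Together CTSB-202 and CTSB-204 made up the larger part of the gene's difference, 40.7% and 24.8%. At least 4088 reads stood behind CTSB-202 over the 3 mutant libraries and at least 1469 over the parental ones. Of its 31-base stretches 8.14% also occur in other genes. AC025857.2, a gene inside a CTSB intron on the same strand, stood at 0.299 and was listed at 0 in the parental group, and its reads cannot be told from those of unspliced CTSB.

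The kinds of CTSB transcript differed by unlike amounts. Its protein-coding transcripts summed to 48.0 against 26.8, a ratio of 1.79, and its forms that keep an intron to 5.48 against 3.25, a ratio of 1.68. The 2 transcripts annotated for nonsense-mediated decay, a pathway that removes messages with an early stop, summed to 11.7 against 9.92, a ratio of 1.18. The larger of these, CTSB-222, stood at 8.75 against 8.05, where the authors' deposited table gave p = 0.968. The share of protein-coding forms in CTSB RNA was 73.6% in the mutant and 67.0% in the parental group, and whether these shares differ beyond the spread between libraries was not tested. Transcripts of 1 gene share reads, so their split is an estimate of the authors' software. FDFT1, of cholesterol synthesis, which lies 3215 bases from CTSB on the other strand, stood at 73.7 against 51.2 (p 0.505 for its most abundant transcript in the authors' deposited table).

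**Figure D2:**
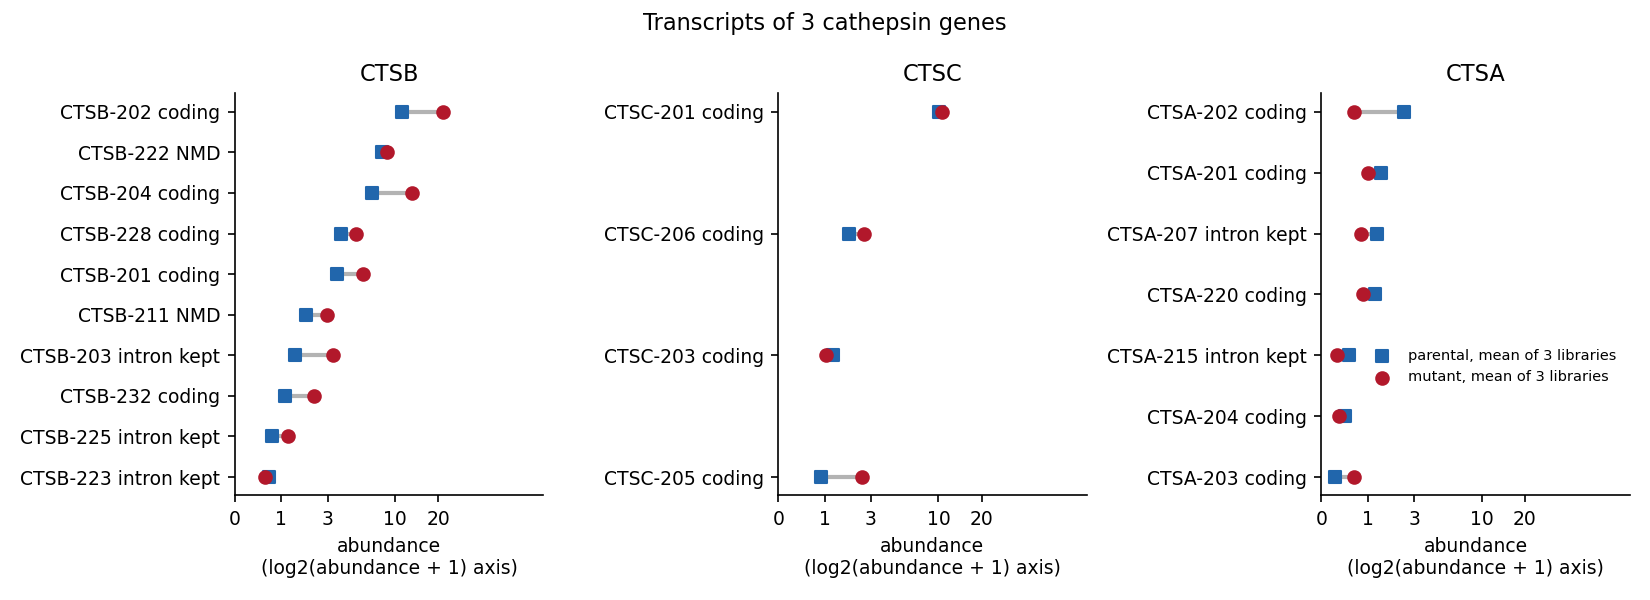
Transcripts of CTSB, CTSC and CTSA that reached an abundance of 0.4, on a log2(abundance + 1) axis, with squares for parental and circles for mutant means of 3 libraries and the annotated kind of transcript beside each name (NMD stands for nonsense-mediated decay). CTSB-202 and CTSB-204 lie well to the right in the mutant group and CTSB-222 does not, CTSC differs mainly at CTSC-205 and CTSA mainly at CTSA-202.

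CTSL, CTSV and CTSK are endopeptidases, and their log2 ratios lay between -0.16 and 0.03. CTSL, a general lysosomal protease on chromosome 9, stood at 25.8 against 27.4. Its main transcript CTSL-201 had 18.7 against 20.6, where the authors' deposited table gave p = 0.682. CTSV, its nearest relative, known from thymus and testis, stood at 4.38 against 5.02, and CTSV-201 at 3.88 against 4.44 (p 0.943 in the authors' deposited table). CTSK, the collagen-degrading enzyme of osteoclasts, was low in both groups at 2.07 against 2.01. Some reads of these genes cannot be placed with certainty: 7.61% of the 31-base stretches of CTSL-201 also occur in other genes, 3.70% in the pseudogene CTSL3P, which was listed at 0 in both groups, and 1.12% of those of CTSV-201 occur in CTSL.

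CTSC and CTSH are exopeptidases that cut from the amino end. CTSC, which activates the granule proteases of leukocytes, stood at 17.2 against 14.4, a log2 ratio of 0.24. Its main transcript CTSC-201 was level, at 10.5 against 10.1 (p 0.947 in the authors' deposited table). Of the gene's difference 58.0% came from CTSC-205, at 2.52 against 0.885 (p 0.0269 in the authors' deposited table). CTSC-205 is annotated as protein-coding, but its 401 bases are fewer than the 1392 of the CTSC coding sequence. Its parental mean stands for only between 12.1 and 20.1 reads in the 3 libraries together. CTSH, an aminopeptidase, stood at 11.7 against 10.3. Its most abundant transcript was CTSH-202, annotated for nonsense-mediated decay, at 5.61 against 4.94 (p 0.602 in the authors' deposited table). Protein-coding forms made up 20.2% of CTSH RNA in the mutant and 22.1% in the parental group, against 73.6% and 67.0% for CTSB. Most of that CTSH share lay in CTSH-207, with 719 bases, and CTSH-218, with 972. Both are shorter than the CTSH coding sequence of 1008 bases. The split among forms is an estimate, and how much of the CTSH message can be translated was not tested. CTSF, a cysteine protease with a long propeptide, was the 1 member under an abundance of 1, at 0.109 in the parental group and listed at 0 in the mutant group. About 1 to 2 reads stood behind each of its 3 largest transcripts in the parental group, CTSF-204, CTSF-202 and CTSF-205, so no difference was detectable at this depth.

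CTSD, the aspartic protease, was the second most abundant member in both groups and stood at 33.7 against 39.3. CTSD-201 had 18.7 against 25.7, and its p was 0.744 in the authors' deposited table. CTSD-212, a minor protein-coding transcript, stood at 0.732 against 0.571 (p 0.0447 in the authors' deposited table), the other way from the gene sum. The level of CTSD is uncertain in 1 respect: 60.9% of the 31-base stretches of CTSD-201 also occur in AC068580.4, an overlapping gene on the same strand, which stood at 2.64 against 2.59.

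CTSA, the serine carboxypeptidase that shields beta-galactosidase and neuraminidase in a shared complex, lay lowest after CTSZ. It stood at 5.43 against 8.50, a log2 ratio of -0.56, with 8.60% of measured genes lower. CTSA-202, with 14 exons, held 58.3% of the difference, at 0.629 against 2.42, and its p was 0.292 in the authors' deposited table. CTSA-203, also protein-coding, lay the other way at 0.621 against 0.216 (p 0.0694 in the authors' deposited table). No CTSA transcript of 17 with values had a p under 0.05. Of its partners, NEU1, the neuraminidase, stood at 10.9 against 18.7 (p 0.0312 for its most abundant transcript in the authors' deposited table). GLB1, the beta-galactosidase, named after its values were seen, stood at 19.1 against 23.1 (p 0.734 for its most abundant transcript in the authors' deposited table). The log2 ratio of GLB1, -0.26, lay between the quartiles of all genes. NEURL2, PLTP and the antisense gene AL008726.1 overlap CTSA on the other strand, and the labels do not state that strand was kept, so reads in the overlaps cannot be assigned. The levels given for these 3 genes were between 0.115 and 0.427.

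The core of the TFEB and TFE3 site, CACGTG, reads the same on both strands. It stood in the 250 bases before the start of 3 of the 8 members with such a window. Each line gives 30 bases from RefSeq (GRCh38.p14) on the gene's strand, 5′ to 3′, with CACGTG in capitals.
CTSA, 42 bases before the start, chr20:45891281-45891310: gaggaagactgtCACGTGgcgccggagttc
CTSA, 25 bases before the start, chr20:45891298-45891327: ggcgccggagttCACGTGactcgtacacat
CTSD, 47 bases before the start, chr11:1763957-1763986: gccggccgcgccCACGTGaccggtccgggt
CTSF, 123 bases before the start, chr11:66568712-66568741: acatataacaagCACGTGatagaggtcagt
CTSF, 51 bases before the start, chr11:66568640-66568669: ccctgcgcgcccCACGTGcctcctgtaaac
Of the 3 genes with a match, CTSA had a log2 ratio of -0.56 and CTSD one of -0.22, which lay between the quartiles of all genes. The p-values of their most abundant transcripts were 0.292 and 0.744 in the authors' deposited table. CTSF, at -0.15 from a few reads, was under an abundance of 1 and had no detectable difference. Whether a match goes with the level was not tested. The 5 members whose window held no match, CTSC, CTSH, CTSL, CTSV and CTSZ, lay on both sides. CTSB and CTSK had no window, so whether they hold a match was not examined. Of all windows of this length 6.34% held CACGTG. TFEB stood at 5.26 against 3.17 and TFE3 at 12.9 against 8.34, with p-values of 0.604 and 0.322 for their most abundant transcripts in the authors' deposited table.

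Across all genes the log2 ratio climbed with GC content, and the cathepsins were set against that trend. GC content of the members' main transcripts ran from 45.2% for CTSC to 64.0% for CTSD. The median log2 ratio of genes of like GC content ran over the members from -0.07 to 0.23. With it taken off, CTSB was at 0.66, CTSA at -0.66, CTSD at -0.45 and CTSZ at -2.97, and the same 4 members lay on the higher side.

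**Figure D3:**
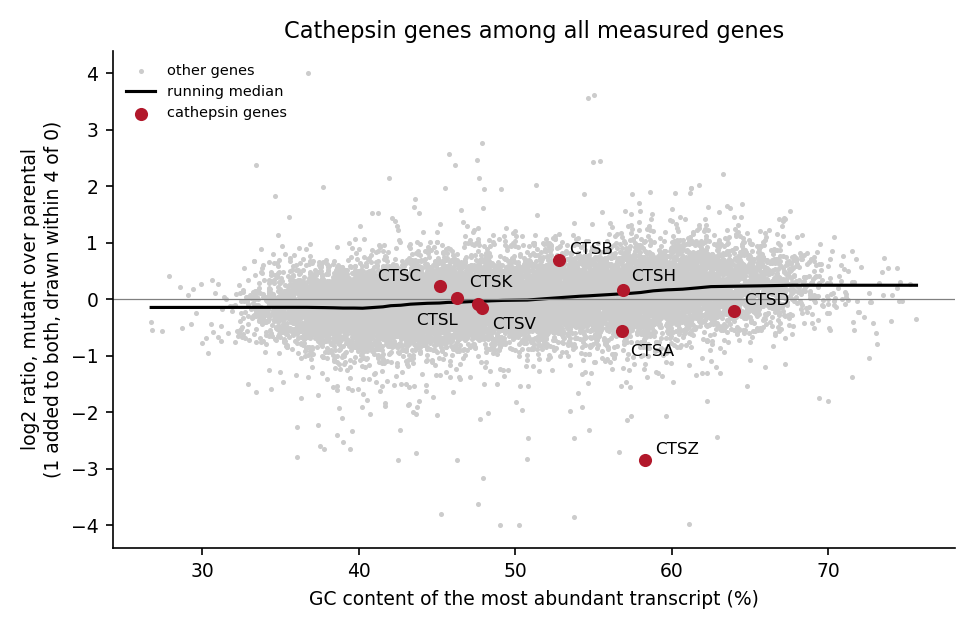
Log2 ratio of mutant over parental gene level against GC content of the most abundant transcript, for the 14723 measured genes with a known GC content, with the running median as a line and the 9 measured cathepsins as large circles, where genes beyond 4 in either direction are drawn at 4. CTSZ lies at -2.84, far below the line, CTSB at 0.69 above it, and the other cathepsins inside the cloud.

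Other lysosomal genes were read from lists, each by the p under 0.05 of the most abundant transcript. That rule called 5.17% of all genes higher and 8.63% lower, while 49.4% of all genes lay on the higher side. The GC trend was not taken off these lists, and its part in their sides and medians was not tested. Among 9 measured proteases and partner proteins, 0 were higher and 1 lower, NEU1, and the median log2 ratio was -0.07. PPT1, a thioesterase that strips fatty acids from proteins, stood at 32.5 against 58.4 and SCPEP1, a relative of CTSA, at 14.4 against 10.1. Of 5 further cathepsin genes only CTSO reached an abundance of 1, at 1.77 against 1.15. CTSE and CTSG were listed at 0 in both groups, CTSW stood at 0.163 against a listed 0, and CTSS, the cathepsin of antigen-presenting cells, at 0.255 against 0.289.

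The measured genes listed as inhibitors had a median log2 ratio of 0.14 and those listed as sorting factors one of 0.07. Of 15 cystatin and serpin genes listed as inhibitors 6 were measured and none passed the threshold. SERPINB1 stood at 12.2 against 7.25 and CSTB, the cytosolic cystatin B, at 20.8 against 22.5. SERPINH1, listed with the serpins but a collagen chaperone, stood at 91.3 against 73.8. Of 11 sorting genes 1 was higher and 0 lower. That gene was GGA3, an adaptor that carries mannose 6-phosphate receptors, at 28.6 against 12.4 (p 0.00375 in the authors' deposited table). GGA1, its relative, stood at 44.7 against 27.9, and IGF2R, the larger receptor, at 11.8 against 8.60.

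Among 24 other hydrolases 0 were higher and 1 lower by that threshold, and 16 lay on the higher side against 49.4% of all genes, with a median of 0.10. GAA, which breaks down glycogen, stood at 40.5 against 15.6, IDUA, of heparan sulfate breakdown, at 9.90 against 5.66, and ARSA, of sulfatide breakdown, at 13.8 against 8.10. The 1 lower gene was ARSB, at 1.76 against 3.48. Of 13 membrane protein genes 0 were higher and 1 lower (CTNS, the cystine exporter, at 1.91 against 3.16). LAPTM4B stood at 46.0 against 70.6, LAPTM4A at 36.6 against 47.6 and NPC1, the cholesterol exporter, at 24.5 against 18.7.

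Of 16 subunit genes of the proton pump that acidifies lysosomes 14 lay lower and 2 higher, where 49.4% of all genes lay higher. Their median was -0.19 against -0.01 over all genes, with the GC trend not taken off. Among the lower ones, ATP6V1E1 (-0.004), ATP6AP1 (-0.008) and ATP6V1F (-0.03) were close to level. By the threshold 0 were higher and 3 lower, where 8.63% of all genes were lower. The 3 were ATP6V1C1 at 3.41 against 7.93 (p 0.0135 in the authors' deposited table), ATP6V1A at 8.78 against 14.2 and ATP6V1G1 at 67.6 against 95.4. ATP6V0D1, at 8.81 against 15.8, and ATP6V1B2, at 12.3 against 20.8, did not pass it. Of 12 regulators 0 were higher and 2 lower. One was RRAGC, a GTPase that brings mTORC1 to lysosomes, at 9.85 against 16.3 (p 0.000725 in the authors' deposited table). The other was FNIP1, whose gene sum was level, at 3.59 against 3.46. No transcript named from these lists had a deposited adjusted p under 0.05.

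**Figure D4:**
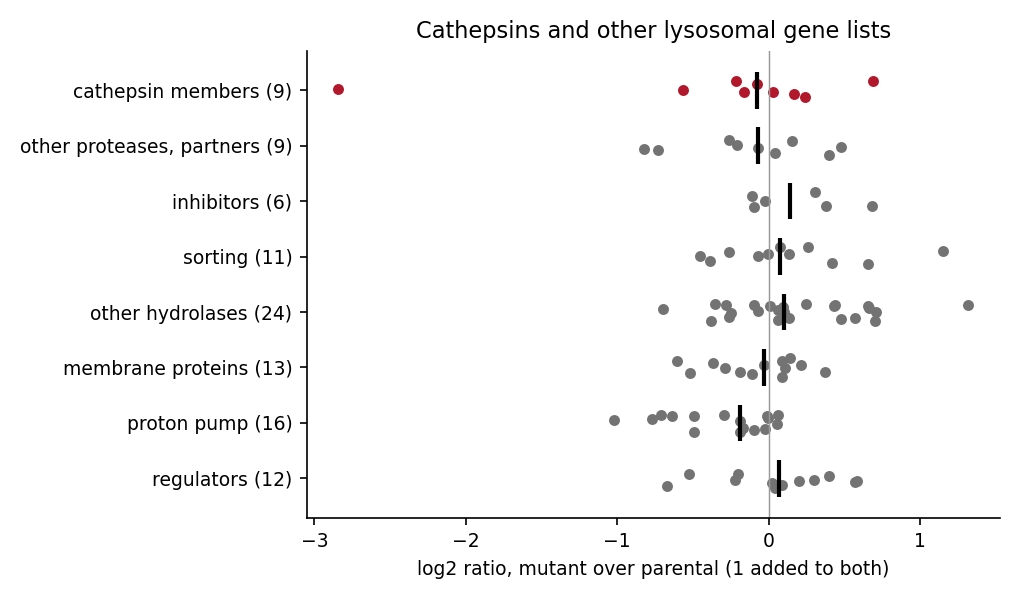
Log2 ratio of mutant over parental gene level (1 added to both) for measured genes of the cathepsin family and 7 other lysosomal lists, with 1 point a gene, the number of genes in brackets, a black bar at the median and points spread vertically only to keep them apart. CTSZ at -2.84 lies outside the range of every other list, and the proton pump genes lie mostly left of 0.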

How the data were processed

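RNA was purified on RNeasy columns and turned into random-primed NEBNext Ultra libraries, per the labels' protocols. Per the submitters' processing notes the authors used bcl2fastq, STAR and Partek with build hg38. Their versions, annotation and filters are not stated there. Per the file headers, the authors deposited a score called LSMean for each group, and its ratio, fold change, p-value and adjusted p-value, also held as scores. From its values, LSMean was read as the group mean of a length-scaled abundance plus 1, which the headers do not state. The deposited signal called total counts was 3 times both group means added together in all 140552 transcripts with values, and was not a count. In the other transcripts it exceeded 6 by at most 1.3e-07, so they added nothing to a gene.

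Gene levels were sums over transcripts of LSMean minus 1, genes with at least 1 in either group were kept, and 1 was added before log2 ratios. Calls used the deposited p-value at 0.05. Of the table's transcripts 99.1% matched GENCODE release 29, which gave gene positions, types and GC content, while promoter windows used RefSeq starts. The GC trend was a running median over 40 bins, averaged over 5, and was tested on simulated data. Python 3.11.15, pandas 2.3.3, numpy 2.4.6, scipy 1.17.1 and matplotlib 3.10.9 were used.

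The members and lists were chosen with earlier results of these data known. All members were named, and from each other list the 3 genes of abundance at least 5 with the largest absolute log2 ratio; GLB1, ARSB, CTNS, FNIP1, ATP6V1A, ATP6V1G1, the further cathepsins and the neighbours were named after values were seen. For members the most abundant transcript, the one with the smallest p and others picked after values were seen are given. Of 15 listed membrane genes 13 were found by symbol.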

Additional observations from a re-analysis of the deposited data

How the results depend on the processing

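No paired analysis was possible because the values analysed are group means, and for the same reason leaving out single libraries was not run. With no replicate values, a log2 ratio counted as moved when it shifted by 0.58 or more, the log2 of 1.5. The number of members on the higher side was 4, and between 3 and 4 with an abundance of at least 5, no filter, protein-coding transcripts alone, the most abundant transcript or the GC trend taken off. The median log2 ratio lay between -0.13 and -0.04 under these and an added 0.1. Of 36 alternative values for single genes none had the other sign and 1 moved, CTSZ with 0.1 added in place of 1, at -4.70. With a p under 0.01 in place of 0.05 the members called higher numbered 0, since CTSB-202 had a p of 0.0101, and the 1 called lower stayed at 1. The p-value of the factor named Type left both at 1. Depth limits CTSF and the minor forms of CTSZ, which rest on a few reads, and also CTSC-205 in the parental group.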
